A study of Mus musculus with 65 samples.

Results

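MEI4 peaks of Spo11KO testes, in which no SPO11 breaks are made, were compared with those of wild-type testes. The MEI4 list of Spo11KO held 3817 peaks and that of the wild type 1566, out of 97260 peaks and hotspots in the 24 lists of the series. Peaks of both lists that overlapped by at least 1 bp were joined, which gave 3951 MEI4 regions in 3 classes. Of these, 1427 (36.1%) were shared by both genotypes, 2385 (60.4%) were found in Spo11KO only and 139 (3.52%) in the wild type only. Each class was then described by the deposited wild-type DMC1 value at the same place, by peak width and by the peaks of the other proteins.

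The wild type was C57BL/6JCrl, and the mutant carried Spo11tm1Mjn, named Spo11KO in the labels. Other lists used beside them came from Prdm9KO (B6;129P2-Prdm9tm1Ymat/J), Iho1KO (Iho1tm1.2Atot) and Hormad1KO (Hormad1tm1.2Atot) mice. All groups were whole testes of male pups fed WIN 18,466, which blocks the making of retinoic acid, from 1.5 days after birth for 7 to 10 days, then injected once with retinoic acid and collected 8 days later. Per the labels this leaves 80 to 95% of leptotene and zygotene spermatocytes, the stages in which breaks form, so the testes also held other cells; the lists have no expression values against which to check the stage. Groups had 2 samples each, except SYCP3 in Spo11KO, Iho1KO and Prdm9KO with 1. Each protein and genotype had 1 peak list, with no strength per peak for MEI4, IHO1, HORMAD1 or SYCP3, so no difference between genotypes has a replicate check. The intervals given are 95% intervals that treat peaks as independent and cover counting error only, and a difference is called when its interval leaves out 0.

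SPO11 is the enzyme that cuts both DNA strands at the start of meiotic recombination. MEI4 is a partner that SPO11 needs, IHO1 binds the MEI4 complex, and HORMAD1 and SYCP3 belong to the protein axis along which each chromosome is folded into loops. PRDM9 is a zinc-finger methyltransferase that marks the places of breaks in most mouse hotspots. After cutting, the recombinase DMC1 coats the single-stranded ends, so the DMC1 list of the wild type, 13808 hotspots here, gives both the places of breaks and a signal at each.

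**Figure D1:**
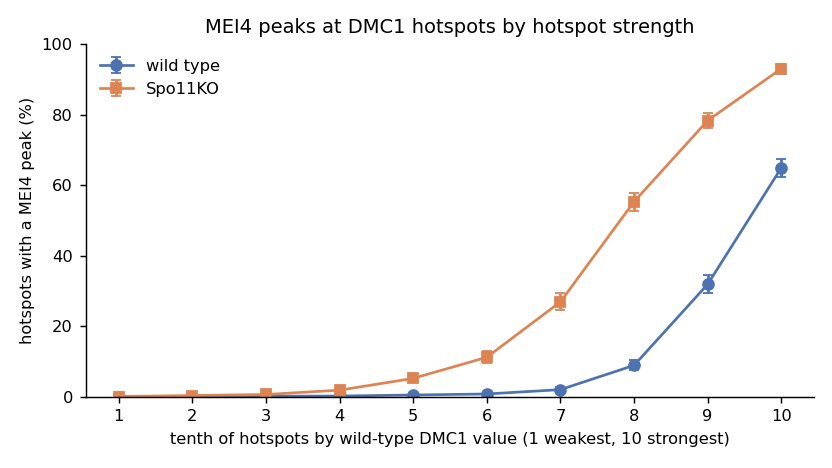
Share of DMC1 hotspots with a MEI4 peak (y axis, %) in each decile of the wild-type DMC1 value (x axis, weakest to strongest), with 95% Wilson intervals as bars. From decile 4 on the Spo11KO share is higher with an interval of the difference above 0, and the widest gap, 46.4 points, is at deciles 8 and 9.

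Few of these regions lay close before an annotated gene start, but those that did can be shown as sequence. The centre of the DMC1 hotspot, with 40 bases to each side, lay within 250 bases before a gene start at 1 of 1416 hotspots with a shared MEI4 region, 4 of 2354 with a Spo11KO-only region, 1 of 97 with a wild-type-only region and 154 of 9941 with no MEI4 peak. Below are 4 of the 6 with MEI4, 1 or 2 for each class, as RefSeq gives them for GRCm38.p6, 5′ to 3′ on the strand of the gene, with the 21 bases at the hotspot centre in capitals.
5730405A17Rik, shared, DMC1 value 3513, chr8:61428252-61428332, minus strand: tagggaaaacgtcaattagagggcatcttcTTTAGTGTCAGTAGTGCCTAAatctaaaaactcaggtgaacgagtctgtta
Gm31493, Spo11KO-only, DMC1 value 1363.5, chr1:160025805-160025885, minus strand: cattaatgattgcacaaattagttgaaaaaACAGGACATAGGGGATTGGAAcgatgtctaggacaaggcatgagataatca
Fyco1, Spo11KO-only, DMC1 value 104, chr9:123851945-123852025, minus strand: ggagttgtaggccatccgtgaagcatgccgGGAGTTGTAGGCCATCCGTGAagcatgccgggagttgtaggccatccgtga
Clcn4, wild-type-only, DMC1 value 82.0, chr7:7298935-7299015, minus strand: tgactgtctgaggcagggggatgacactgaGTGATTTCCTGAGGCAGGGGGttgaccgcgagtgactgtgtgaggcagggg
The Fyco1 stretch is an exact tandem repeat with a unit of 30 bases, and of the 6 stretches no other repeated exactly over its length. The guanine and cytosine content was 39.5% at 5730405A17Rik, 37.0% at Gm31493, 59.3% at Fyco1 and 60.5% at Clcn4.

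Without SPO11 breaks, MEI4 was listed at nearly the same sites as in the wild type and at many more. Of the 1566 wild-type peaks, 91.1% (89.6 to 92.4) had a Spo11KO peak over them, while 37.5% (36.0 to 39.1) of the 3817 Spo11KO peaks had a wild-type peak. These 2 shares follow from lists of unequal length. When only the 1566 widest Spo11KO peaks were kept, 58.4% of the wild-type peaks were found, and with the first 1566 of the Spo11KO file 66.7%; the shares the other way were then 58.5% and 66.9%. The 2 lists matched closely where they matched: the median overlap was 1673 bp, and at 850 of the 1427 shared regions (59.6%) the narrower peak lay wholly inside the wider. The lists give no read counts, so the depth behind each is unknown and its part in their length was not tested. In whole testes, more cells with MEI4 at a site and more MEI4 per cell cannot be told apart. The smallest overlaps of shared regions were 689, 744 and 768 bp, no wild-type-only peak had a Spo11KO peak within 500 bp, 4 had one within 5000 bp, and the median distance was 296 kb.

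Nearly all shared and Spo11KO-only regions lay at DMC1 hotspots. A hotspot was found at 99.2% of shared and 98.7% of Spo11KO-only regions, and the difference, -0.501 points (-1.15 to 0.234), was not called. A lower share of the Spo11KO-only regions was called with 1 kb windows around peak centres (-1.30 points), with the stronger 50% of hotspots (-4.75) and without the last 1 Mb of each chromosome (-0.753). No hotspot was met by 12 shared and 32 Spo11KO-only regions. Wild-type-only regions were at hotspots in 68.3%, a difference from the shared of -30.8 points (-39.0 to -23.6). The size of this difference depended on the lists, with -12.1 points without the last 1 Mb of each chromosome, and -6.22 and -8.43 with the Spo11KO list at equal length by width and by file order. At equal length the wild-type-only class takes in regions whose Spo11KO peak was cut, and holds 652 and 522 regions instead of 139. All 3 classes therefore lay mainly at places where breaks are made in the wild type, and the wild-type-only class had the largest number elsewhere, 44 of 139.

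The hotspots of the Spo11KO-only regions were weaker. The DMC1 value ran from 70.5 to 20513.5 with a median of 1560.5 at shared regions (interval 1489.5 to 1666.5, n = 1415), and from 29.5 to 13846 with a median of 552 (536 to 574, n = 2353) at Spo11KO-only regions. At the 9941 hotspots with no MEI4 peak in either genotype the median was 79.5. The wild-type-only regions had a median of 846 (636 to 984, n = 95) and the widest spread, from 32.0 to 20822.5, the highest value of the whole DMC1 list. The classes overlapped, and the order of the medians was shared, wild-type-only, Spo11KO-only and no MEI4. With equal list length the Spo11KO-only median was 910 by width and 1335 by file order, and in the latter it stood above the wild-type-only median of 916. The wild-type-only class then also holds regions whose Spo11KO peak was cut. What sets the file order is not documented. At shared regions, Spearman's rho with the DMC1 value was -0.61 for place in the Spo11KO file and 0.41 for Spo11KO width, so both cuts favour strong hotspots.

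**Figure D2:**
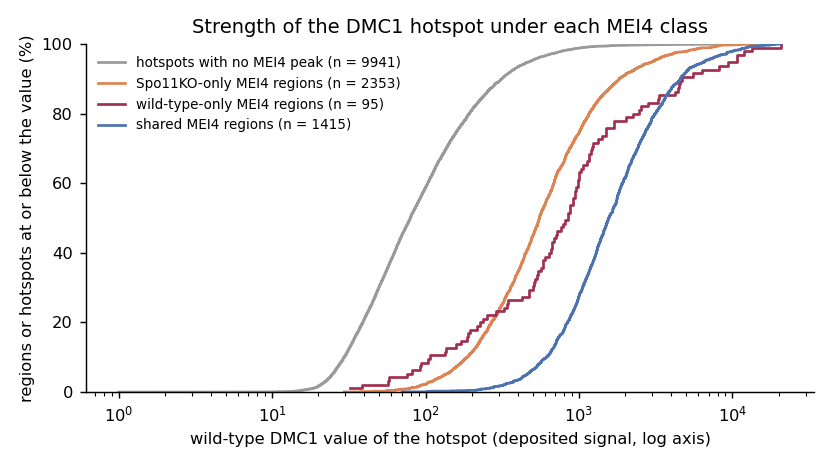
Cumulative share (y axis, %) of MEI4 regions of each class, and of hotspots with no MEI4 peak, at or below each wild-type DMC1 value (x axis, deposited signal, log scale). The median rises from 79.5 with no MEI4 peak to 552 for Spo11KO-only and 1560.5 for shared regions, and the wild-type-only curve crosses both MEI4 curves.

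Along the DMC1 value, the Spo11KO list reached further down than the wild-type list. MEI4 peaks lay at 11% of all hotspots in the wild type and at 27.3% in Spo11KO. In the strongest decile the shares were 64.9% (62.3 to 67.4) and 93.0% (91.5 to 94.2). In the ninth decile they were 31.9% and 78.3%, in the eighth 8.91% and 55.3%, and in the seventh 2.03% and 26.9%. The difference was 28.1 points in the strongest decile, where little room is left above the wild type, 46.4 in each of deciles 8 and 9, and 24.9 in decile 7. In the weakest decile 1 hotspot had a MEI4 peak in each genotype. Wild-type peaks at strong hotspots were also found again more often, 97.0% (95.7 to 97.9) in the strongest decile against 78.6% (60.5 to 89.8) in the seventh.

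The most active hotspots were not all covered without SPO11. Of the 50 with the highest DMC1 value, 34 had MEI4 in both genotypes, 7 in Spo11KO only, 6 in the wild type only and 3 in neither. Among the 1000 strongest the numbers were 663, 270, 23 and 44. The wild-type-only class thus made up 6 of the first 50 and 23 of the first 1000. Both other mutant lists with many MEI4 peaks covered more of the 50, with 46 in Iho1KO and 47 in Hormad1KO against 40 in the wild type and 41 in Spo11KO. This did not hold among the 1000 strongest, where Spo11KO and Hormad1KO had 933 each, Iho1KO 842 and the wild type 686.

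Single sites show the classes. The strongest shared region (chr2:38135283-38141147, DMC1 value 20513.5) lay inside Dennd1a, which codes for a regulator of membrane traffic, with a MEI4 peak 5865 bp wide in the wild type and 3699 bp in Spo11KO. Its IHO1 peak was 5743 bp wide in the wild type and 2934 bp in Spo11KO, and its HORMAD1 peak 5653 and 3039 bp. The strongest Spo11KO-only regions were at chr17:55288179-55291131 (13846), 155 kb from St6gal2, and at X:42214860-42217025 (11624.5) inside Stag2, a cohesin subunit gene. At the site near St6gal2, which has no MEI4 peak in the wild-type list, IHO1 had a wild-type peak of 6441 bp and SYCP3 one of 8068 bp, against 2958 and 2956 bp in Spo11KO. The gene table gives gene spans only, so exons and introns were not told apart.

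The strongest wild-type-only region, at the strongest hotspot of all (chr11:89608041-89615045, DMC1 value 20822.5), lay inside Ankfn1. Its MEI4 peak was 7005 bp wide, and MEI4 peaks were also listed there in Iho1KO and Hormad1KO. IHO1 and HORMAD1 had peaks of 9022 and 9802 bp in the wild type and none in Spo11KO, while SYCP3 had 8850 bp in the wild type and 2279 bp in Spo11KO. The next, inside Ttk, a spindle checkpoint kinase gene (chr9:83856592-83864859, 13363), likewise had IHO1 and SYCP3 peaks in the wild type of 9814 and 10967 bp, and in Spo11KO no IHO1 peak and an SYCP3 peak of 2467 bp. In all, 14 wild-type-only regions lay at a hotspot of value 4000 or more, of 281 such hotspots. Of these 14, 13 had MEI4 in Iho1KO and 13 in Hormad1KO, 12 had IHO1 in the wild type and 8 in Spo11KO, and their median width was 4898.5 bp. Of the 200 strongest hotspots, of value 4824.5 or more, 176 had MEI4 in Iho1KO and 185 in Hormad1KO. IHO1 was at 175 of those 200 in the wild type and at 159 in Spo11KO. Presence in both other mutant lists was thus usual at strong hotspots and not particular to these 14, which the Spo11KO list lacks by the rule of the class. IHO1 of Spo11KO was at a smaller part of the 14 than of the 200, though 14 is a small number.

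IHO1, the partner that binds the MEI4 complex, was listed at many more of the MEI4 regions in Spo11KO. At shared regions the share with an IHO1 peak was 27.0% in the wild type and 74.7% in Spo11KO, a paired difference of 47.7 points (44.6 to 50.5). Of the 1427 shared regions, 731 had IHO1 in Spo11KO only, 51 in the wild type only, 335 in both and 310 in neither. At Spo11KO-only regions the share was 5.70% in the wild type and 34.5% in Spo11KO, a difference of 28.8 points (26.9 to 30.7), which became 44.3 and 55.1 at equal list length by width and by file order. Over all hotspots, which include those of both classes, the shares were 4.14% and 14.2%. At hotspots with no MEI4 peak in either genotype they were 0.443% and 0.765%. The whole IHO1 list held 1589 peaks in the wild type and 2681 in Spo11KO. At wild-type-only regions the shares were 34.5% and 21.6% (difference -12.9 points, -21.3 to -4.23).

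HORMAD1 and SYCP3, the axis proteins, did not follow IHO1. HORMAD1 lay at 28.8% of shared regions in the wild type and 30.6% in Spo11KO, and the difference, 1.75 points (-0.989 to 4.49), was not called, beside 4.70% and 5.15% of all hotspots. It was called at an overlap of 50% (4.41 points), with 1 kb windows (6.36) and on autosomes (2.88). Of the shared regions, 225 had HORMAD1 in both genotypes, 186 in the wild type only and 211 in Spo11KO only. At Spo11KO-only regions HORMAD1 lay at 7.21% and 8.55% (difference 1.34, 0.192 to 2.49), which at equal list length was 2.77 and 1.73 and not called. SYCP3 lay at 47.0% of shared regions in the wild type and 26.8% in Spo11KO (difference -20.1 points, -23.0 to -17.2), and at 11.7% and 7.25% of Spo11KO-only regions (difference -4.40, -5.67 to -3.13), beside 7.47% and 5.75% of all hotspots. With 1 kb windows the SYCP3 differences were -12.5 at shared and -1.25 at Spo11KO-only regions; the latter was -2.43 at an overlap of 50%, and -10.6 and -17.1 at equal list length by width and by file order. As a whole, the HORMAD1 list held 1715 peaks in the wild type and 2897 in Spo11KO, and the SYCP3 list 1911 and 2369. Only 1 sample stands behind the SYCP3 list of Spo11KO.

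The make-up of the sites differed between genotypes. IHO1 with neither HORMAD1 nor SYCP3 was listed at 27 shared regions (1.89%) in the wild type and at 541 (37.9%) in Spo11KO. At Spo11KO-only regions it was 6 (0.252%) and 592 (24.8%), and over all hotspots 0.333% and 8.54%. All 3 partners together were at 262 shared regions (18.4%) in the wild type and 211 (14.8%) in Spo11KO. No listed partner was at 684 shared regions (47.9%) in the wild type, and at 298 (20.9%) without SPO11.

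**Figure D3:**
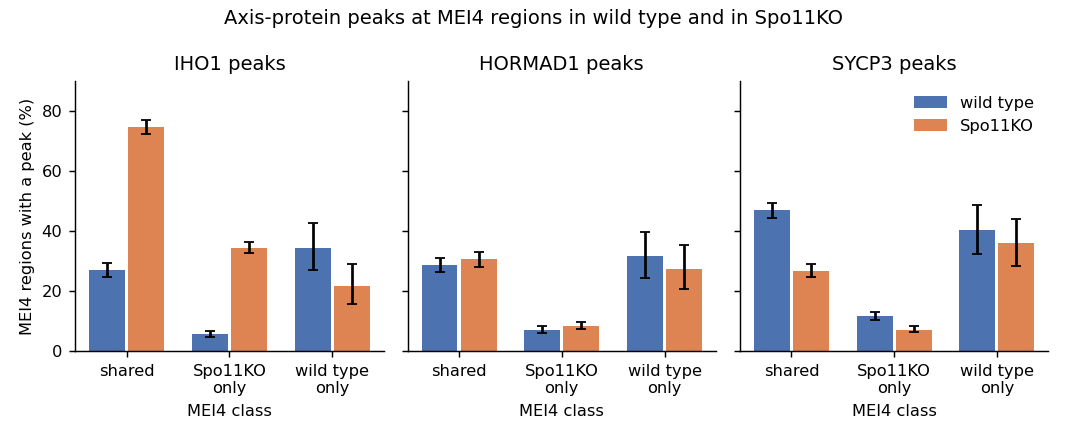
Share of MEI4 regions (y axis, %) of each class (x axis) with a peak of IHO1, HORMAD1 or SYCP3 in either genotype, with 95% Wilson intervals as bars. IHO1 goes from 27.0% to 74.7% at shared regions, HORMAD1 from 28.8% to 30.6% and SYCP3 from 47.0% to 26.8%.

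The axis-protein peaks at MEI4 sites were much narrower without SPO11 breaks. At shared MEI4 regions, HORMAD1 regions listed in both genotypes had a median width of 5660 bp in the wild type and 1920 bp in Spo11KO, with a median ratio of 0.354 (0.338 to 0.378), and 215 of 225 were narrower in Spo11KO. SYCP3 had 5366 and 1886 bp, a ratio of 0.359 (0.345 to 0.375), with 270 of 281 narrower. IHO1 had 4443.5 and 1995.5 bp, a ratio of 0.526 (0.499 to 0.564), with 282 of 326 narrower. All 3 intervals lay below 1, and the Spo11KO medians of the 3 proteins were close to that of MEI4 at these regions, 1925 bp. The lower quartile of HORMAD1 and SYCP3 widths in the wild type, 4591 and 4622 bp, lay above the upper quartile in Spo11KO, 2417 and 2366 bp.

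Peaks of the same lists away from hotspots did not narrow in this way. At regions that overlapped no DMC1 hotspot, the median ratio was 1.00 (0.978 to 1.04) for IHO1 (n = 344), 1.02 (0.998 to 1.04) for SYCP3 (n = 335) and 0.911 (0.880 to 0.936) for HORMAD1 (n = 754). At CTCF peaks among them the ratios were 1.06, 1.01 and 0.911, CTCF being a DNA-binding protein that shapes chromatin loops. For each of the 3 proteins the interval at shared MEI4 regions and that away from hotspots do not overlap. These sites were not matched for starting width. Away from hotspots the wild-type medians were 1915.5 bp for IHO1, 2057.5 for HORMAD1 and 2162 for SYCP3, against 4443.5, 5660 and 5366 bp at shared MEI4 regions. The part of starting width in the ratios was not tested. The narrowing was also seen at Spo11KO-only MEI4 regions, with ratios of 0.581 (0.485 to 0.677) for IHO1, 0.393 (0.362 to 0.443) for HORMAD1 and 0.362 (0.341 to 0.400) for SYCP3. Ratios of the other mutants to the same wild-type peaks at shared MEI4 regions were 0.605 (0.558 to 0.662) for IHO1 in Hormad1KO and 0.383 (0.319 to 0.541) for HORMAD1 in Iho1KO. For SYCP3 they were 0.850 (0.788 to 0.906) in Hormad1KO and 0.284 (0.244 to 0.319) in Iho1KO, the latter, like Spo11KO, with 1 sample.

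**Figure D4:**
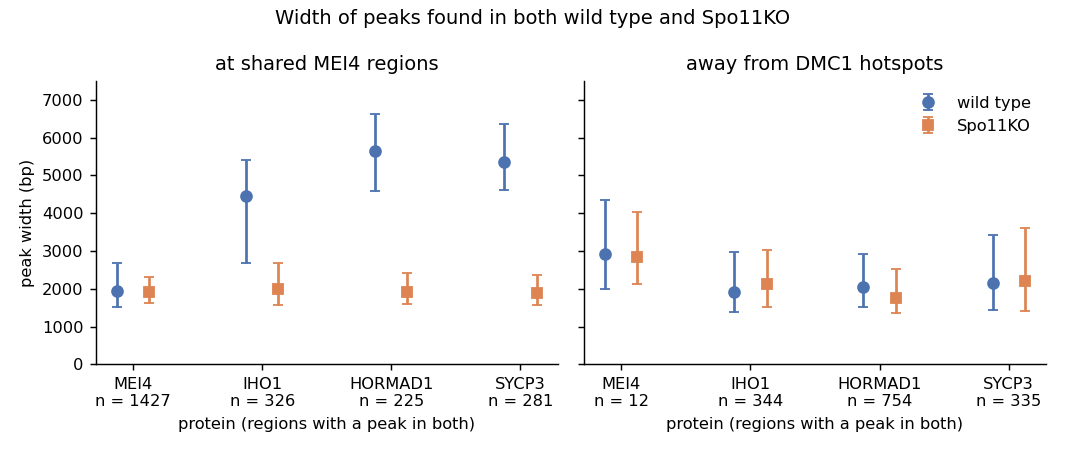
Median peak width (y axis, bp), with quartiles as bars, of regions listed in both the wild type and Spo11KO, for MEI4, IHO1, HORMAD1 and SYCP3, at shared MEI4 regions (left) and away from DMC1 hotspots (right). At MEI4 regions the wild-type HORMAD1 median of 5660 bp stands against 1920 bp in Spo11KO, while away from hotspots the medians are 2057.5 and 1754.5 bp.

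MEI4 peaks themselves changed less in width, and in a way that went with hotspot strength. Over the 1427 shared regions the median was 1943 bp in the wild type and 1925 bp in Spo11KO, with a median ratio of 0.973 (0.953 to 0.990); 767 were narrower in Spo11KO and 660 wider. From the weakest to the strongest quartile of the DMC1 value the median ratio was 1.08, 1.04, 0.954 and 0.815. In the strongest quartile the median was 2984.5 bp in the wild type and 2267 bp in Spo11KO. Spearman's rho between the DMC1 value and the width ratio was -0.33 over 1415 regions of the same lists, and between the DMC1 value and width 0.53 in the wild type and 0.41 in Spo11KO. The other 2 mutant lists gave ratios to the same wild-type peaks of 0.772 (Iho1KO) and 0.870 (Hormad1KO) in the strongest quartile, where Spo11KO had 0.818 for regions in all 4 lists. Spo11KO-only peaks were narrower, with a median of 1527 bp, and wild-type-only peaks had a median of 1957 bp. For the partners, the width ratio of Spo11KO to wild type did not fall steadily from the weakest to the strongest quartile. The strongest quartile held 239 of the 328 regions compared for IHO1, 169 of 217 for HORMAD1 and 159 of 271 for SYCP3. Median ratios there were 0.515, 0.346 and 0.324, beside 0.815 for MEI4. In the weakest quartile, with 6, 6 and 13 regions, they were 0.975, 0.596 and 0.543. In the next, with 14, 9 and 27 regions, they were 0.720, 0.732 and 0.354. The quartile after that, with 69, 33 and 72 regions, had 0.484, 0.361 and 0.385.

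MEI4 peaks of Spo11KO also lay closer to the hotspot centres. The median distance from peak centre to hotspot centre was 172 bp for the wild-type peaks and 110 bp for the Spo11KO peaks of shared regions. For Spo11KO-only peaks it was 108 bp and for wild-type-only peaks 186 bp. Centres within 250 bp of the hotspot centre were 66.2%, 82.6%, 85.8% and 61.1% in that order.

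Spo11KO-only regions carried fewer partner proteins than shared regions, also within deciles of the DMC1 value. IHO1 of Spo11KO differed by -40.2 points (-43.0 to -37.1) over the regions, and the difference within deciles of the DMC1 value was -21.4 points (-25.0 to -17.8). At equal list length the first was -22.3 by width and -8.94 by file order, and the second -10.3 and -6.45, each called. Within deciles, HORMAD1 and SYCP3 of Spo11KO differed by -10.2 (-13.2 to -7.20) and -11.0 points (-13.9 to -8.12). Shares in the wild-type lists were lower too at Spo11KO-only hotspots, with -6.86 points for IHO1, -5.39 for HORMAD1 and -11.4 for SYCP3, each called. Most of these wild-type peaks lay in the strongest decile, of DMC1 value 1263 to 20822.5, as 362 of 373 for IHO1 at shared hotspots. In decile 8 the wild-type IHO1 shares were 0.926% at shared and 0.915% at Spo11KO-only hotspots, while in decile 9 those of SYCP3 were 16.3% and 5.65%. Strength could still differ within a decile, and its part was not tested. DMC1 hotspots of Hormad1KO lay at 34.5% of all wild-type hotspots, at 94.4% of those with shared and 75.4% of those with Spo11KO-only MEI4, a difference of -3.68 points within deciles (-5.87 to -1.49) that was not called at equal list length (-0.665 by width and -0.645 by file order).

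Against hotspots with no MEI4 peak in the same decile of the DMC1 value, the hotspots of Spo11KO-only regions differed even in the wild-type lists. HORMAD1 or SYCP3 of the wild type was at 12.8% of them and at 0.855% of hotspots with no MEI4. The difference within deciles was 2.90 points (1.77 to 4.03). At equal list length it was 15.0 by width and 23.7 by file order, but this is not the same contrast. Hotspots whose Spo11KO peak was cut then count as having no MEI4, which makes that group 11655 and 11783 instead of 9941. The strongest decile, in which DMC1 values run from 1263 to 20822.5, held 142 of the 163 Spo11KO-only hotspots with HORMAD1 and 221 of the 277 with SYCP3. There HORMAD1 was at 34.2% of Spo11KO-only hotspots and 25.7% of those with no MEI4, and SYCP3 at 53.3% and 32.9%. IHO1 of Spo11KO, at 34.3% and 0.765%, differed by 23.8 points within deciles (21.7 to 26.0). The DMC1 list of Hormad1KO, at 75.4% and 15.8%, differed by 20.4 points (17.6 to 23.1). Strength could still differ within a decile, and its part in these differences was not tested.

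With the full lists, CTCF peaks set Spo11KO-only and shared hotspots apart within deciles of the DMC1 value, but not over the regions as a whole. CTCF peaks, at 8.49% of all hotspots, were at 9.53% of shared, 8.13% of Spo11KO-only and 12.2% of wild-type-only regions, and neither difference from the shared class was called (-1.40, -3.33 to 0.438, and 2.70, -2.04 to 9.34), although the first was called with 1 kb windows (-1.62) and turned to 0.943 at equal list length by width. Within deciles of the DMC1 value Spo11KO-only hotspots had CTCF less often than shared ones (-3.72 points, -5.87 to -1.56) and more often than hotspots with no MEI4 (5.08, 3.46 to 6.71), and shared hotspots differed from the latter by 7.88 (5.09 to 10.7). These CTCF differences within deciles were not recomputed under the other settings. Either end of a protein-coding gene, widened by 1 kb and met by 13.4% of all hotspots, was met by 7.78% of shared and 5.24% of Spo11KO-only regions (-2.54 points, -4.25 to -0.933); with gene starts alone this was -0.445 points, with 1 kb windows -0.558, at equal list length by file order -1.78, and by width it turned to 0.782, none called. At wild-type-only regions it was 18.0%, 10.2 points above the shared (4.51 to 17.5), but without the last 1 Mb of each chromosome the difference was 3.80 points (-1.36 to 11.8) and not called, nor was it at equal list length (1.22 and 1.63) or with the stronger 50% of hotspots (4.11).

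The gain of MEI4 peaks without SPO11 was smaller on the X chromosome than on any autosome. The number of Spo11KO peaks over wild-type peaks ran from 1.85 on chromosome 4 to 3.32 on chromosome 2, with a median of 2.56 over the autosomes, and was 1.27 on X (71 against 56 peaks). Of the 494 X hotspots, 9.72% had MEI4 in the wild type and 13.8% in Spo11KO, against 11% and 27.8% of the 13314 autosomal ones. Within deciles of the DMC1 value the X hotspots were lower by -5.11 points (-7.10 to -3.12) in the wild type and by -19.9 points (-21.7 to -18.0) in Spo11KO. The median DMC1 value was 156 on X and 128 on the autosomes. Whether an equal DMC1 value means equal hotspot strength on X and on the autosomes was not tested. Of the wild-type X peaks, 17 of 56 (30.4%) were wild-type-only, beside 25 of 117 (21.4%) on chromosome 9 and 1 of 72 (1.39%) on chromosome 12. Of these, 7 of the 17 on X and 15 of the 25 on chromosome 9 lay in the last 1 Mb. The X counts include that end, with 9 wild-type and 3 Spo11KO peaks.

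Many wild-type-only regions lay at the ends of 5 chromosomes that are known for dense clusters of MEI4 and its partners. The last 1 Mb of chromosomes 4, 9, 13, X and Y held 45 wild-type MEI4 peaks covering 405 kb, and 17 in Spo11KO covering 76.1 kb. On chromosome 4 the count was 9 in the wild type and 0 in Spo11KO, on 9 it was 20 and 11, on 13 it was 3 and 0, on X 9 and 3, and on Y 4 and 3. On the other autosomes together the last 1 Mb held 13 and 11. These 5 ends held 37 of the 139 wild-type-only regions, 31 of them at no hotspot, and 8 of the 1427 shared ones.

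The other proteins did not all thin out at these ends. IHO1 had 116 peaks there in the wild type and 64 in Spo11KO, HORMAD1 80 and 68, and SYCP3 79 and 107. In that order they covered 540 and 326 kb, 414 and 381 kb, and 384 and 523 kb. MEI4 itself had 70 peaks there in Prdm9KO, 41 in Hormad1KO and 13 in Iho1KO. These covered 336, 143 and 36.0 kb, each less than the 405 kb of the wild type. A higher count, as in Prdm9KO, thus did not mean a larger coverage. Over the 5 ends together, MEI4, IHO1 and HORMAD1 thus had fewer peaks in Spo11KO, while SYCP3 had more. The HORMAD1 count fell on chromosomes 4 (10 and 8), 9 (45 and 37) and X (13 and 6), and rose on 13 (5 and 6) and Y (7 and 11). The SYCP3 list of Spo11KO, from 1 sample, was also longer as a whole, with 2369 peaks against 1911. So were the HORMAD1 list, with 2897 against 1715, and the IHO1 list, with 2681 against 1589. Without the last 1 Mb of each chromosome, 93.6% of the wild-type MEI4 peaks were found in Spo11KO.

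**Figure D5:**
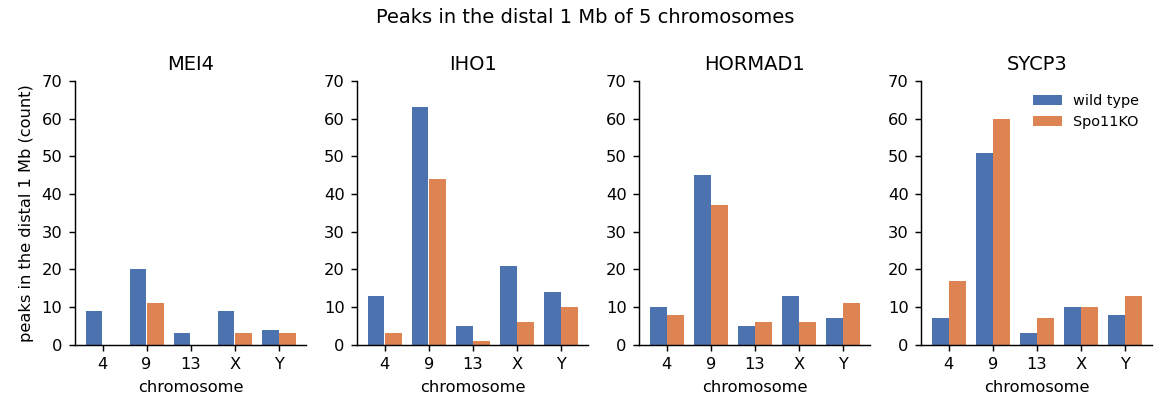
Number of peaks (y axis) in the last 1 Mb of chromosomes 4, 9, 13, X and Y (x axis) for each protein and genotype. MEI4 counts on chromosome 9 are 20 and 11, and SYCP3 counts there are 51 and 60.

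The other mutants' MEI4 lists, set beside the same wild-type list, show which regions recur. Of the shared regions 82.6% had MEI4 in Iho1KO and 94.1% in Hormad1KO, where 18.9% and 26.9% of all hotspots had it. Of the Spo11KO-only regions 44.7% and 67.5% had it, although none had MEI4 in the wild-type list. Of the wild-type-only regions 43.9% and 61.2% had it, and 12.2% had MEI4 in Prdm9KO. In Prdm9KO the share was 0.561% of shared and 0.252% of Spo11KO-only regions.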

How the data were processed

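MEI4, IHO1, HORMAD1, SYCP3, CTCF and DMC1 were mapped by chromatin immunoprecipitation and sequencing of testes fixed with 4% formaldehyde for 15 minutes, per the labels' protocols. Per the submitters' processing notes, Bowtie2 and MACS2 were used and the build was mm10; versions and settings are not given in the sources used here. The series' design text says that each protein's own knockout was subtracted from its lists. The deposited lists give intervals; column 4 is a signal in the DMC1 lists and a score in the CTCF list, and neither unit is stated by the authors. Whether replicates were pooled is not stated; each group has 1 list.

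Wild-type and Spo11KO MEI4 peaks overlapping by 1 bp or more were joined into regions, and a region or hotspot was counted at a list when it overlapped 1 of its peaks by 1 bp. Shares have Wilson intervals, differences of classes Newcombe intervals, paired differences Bonett-Price intervals, and differences within 10 classes of the DMC1 value are Mantel-Haenszel differences with Sato's variance. Medians have order-statistic intervals. No p-value was computed, since peaks are not replicates. Gene ends are those of 21900 protein-coding genes (RefSeq, GRCm38.p6), widened by 1 kb. Named sites are the 5 regions of highest DMC1 value in each class, the 3 at no hotspot found in most lists, the 3 strongest hotspots with no MEI4, and those nearest the overlap threshold; of these the text gives some. The members and lists were chosen with earlier results of these data known. The methods were tested on simulated lists. Python 3.11.15, numpy 2.4.6, pandas 2.3.3 and scipy 1.17.1 were used. Other settings, 6 and a further 3 chosen after seeing the data, are named in the closing section.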

Additional observations from a re-analysis of the deposited data

How the results depend on the processing

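The 32 results were recomputed under 6 settings and 3 more chosen after the data were seen (the first Spo11KO peaks in file order, gene starts, and no last 1 Mb of each chromosome). Of 246 recomputed values, 213 kept their direction and side of the threshold, or for shares and medians stayed within the interval; merging peaks within 1 kb changed none. With Spo11KO peaks cut to the 1566 widest, 58.4% of wild-type peaks were found in Spo11KO and 58.5% the other way, and the median DMC1 values were 1875 (shared), 910 (Spo11KO-only) and 1073 (wild-type-only). Spo11KO-only minus shared then was 0.943 points at CTCF peaks and 0.782 at gene ends, both reversed and not called, -1.03 on X and -0.665 in the Hormad1KO DMC1 list within deciles, wild-type-only minus shared at gene ends was 1.22, and the HORMAD1 rise at Spo11KO-only regions 2.77, none called. With the first 1566 in file order the shares were 66.7% and 66.9%, the medians 1880 (shared), 1335 (Spo11KO-only) and 916 (wild-type-only), and the same differences were -1.78 and 1.63 at gene ends (Spo11KO-only and wild-type-only), 1.73 for HORMAD1 and -0.645 in the Hormad1KO DMC1 list, none called. The HORMAD1 rise at shared regions was called at an overlap of 50% (4.41 points), with 1 kb windows (6.36) and on autosomes (2.88). Spo11KO-only regions were at hotspots less often, as a called difference, with 1 kb windows (-1.30), the stronger 50% of hotspots (-4.75) and without chromosome ends (-0.753). With 1 kb windows, Spo11KO-only minus shared was -1.62 at CTCF peaks (called) and -0.558 at gene ends (not called), and with gene starts -0.445 (not called). With the stronger 50% of hotspots, wild-type-only minus shared was -2.23 at CTCF peaks (reversed, not called) and 4.11 at gene ends (not called), and the Spo11KO-only median was 578. Without chromosome ends 93.6% of wild-type peaks were found, and the wild-type-only difference at gene ends was 3.80 (not called). Width ratios have no value with 1 kb windows. Equal list length also changes the classes, since regions whose Spo11KO peak was cut become wild-type-only or have no MEI4. The wild-type-only class then held 652 regions by width and 522 by file order, instead of 139. The cause of these changes was not tested. No paired analysis was possible because each group has 1 list that carries no replicate, and for the same reason no replicate could be left out.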

Other observations

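MEI4 peaks were denser along the chromosomes in Spo11KO, with a median distance between neighbouring peaks on autosomes of 340 kb (130 to 785 kb between quartiles, 3724 intervals) against 894 kb (319 to 2108 kb, 1486 intervals) in the wild type. The hotspots of Spo11KO-only regions lay at a median of 527 kb from the nearest wild-type peak, and hotspots with no MEI4 at 566 kb. Of the first, 14.1% lay within 100 kb of a wild-type peak, against 12.7% of the second, and within deciles of the DMC1 value the difference was 4.05 points (2.01 to 6.09).

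The strongest hotspots with no MEI4 peak in either list were not empty of the other proteins. The first, 3.87 kb from Nedd1 on chromosome 10 (DMC1 value 18957.5), had MEI4 peaks in Iho1KO and Hormad1KO and wild-type peaks of IHO1, HORMAD1 and SYCP3 that were 7758, 7309 and 10061 bp wide, and none of the 3 in Spo11KO. The next, inside Dnajc3 on chromosome 14 (10326.5), had none of these 3 proteins in either genotype, but MEI4 and IHO1 in Hormad1KO. The third, inside Plekha5 on chromosome 6 (9462.5), had IHO1 and HORMAD1 in the wild type (7498 and 9119 bp) and HORMAD1 and SYCP3 in Spo11KO (4823 and 2031 bp).

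Of the 44 wild-type-only regions at no hotspot, 32 lay in the last 1 Mb of a chromosome, counting 1 on the short mitochondrial genome, and of these 13 had MEI4 in Prdm9KO, 24 had IHO1 in the wild type and 24 in Prdm9KO, and 10 had IHO1 in Spo11KO. The other 12 had a median width of 1129.5 bp, and 0 of them had an IHO1 peak in Spo11KO.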
